A study of Mus musculus with 15 samples.

Results

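The genes described here are the matrix metalloproteinases (MMPs), the ADAMTS proteases and the tissue inhibitors of metalloproteinases (TIMPs) of the mouse. The members are the genes whose symbol is Mmp followed by a digit, Adamts followed by digits only, or Timp1, Timp2, Timp3 or Timp4, and the families were picked with earlier results of these data known. The rule gave 37 of the 18193 genes on the array: 18 MMPs, 15 ADAMTS genes and 4 TIMPs. Where a gene had several probe sets, the one with the highest average level was taken. Family members with no probe set under this rule were not analysed here.

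RNA was measured on 15 Affymetrix arrays from mammospheres, which are spheres that single cells from a mammary tumour form when they cannot attach. All cultures came from primary tumours of FVB/N mice of the genotype WAPCre-DNbcatn;HGF, so treated and control spheres alike carried these alleles, and all were grown for 7 days and then treated for 24 h. WAP is a milk protein promoter that is active in alveolar mammary epithelium; what drives HGF, and the age and number of the mice, are not given in the labels. In a first set, identified by a code in the array titles, 3 arrays each held spheres treated with PHA, with ICG and with DMSO, the solvent. In a second set, 3 arrays each held PHA+ICG and their own DMSO. The series asks about inhibitors of the Wnt and MET pathways, alone or combined. PHA and ICG are shorthand in the labels, with no dose; as general background, compounds with these prefixes are known as a MET kinase inhibitor and as an inhibitor of β-catenin-dependent transcription. The labels do not say that replicates came from separate animals or cultures, so p-values reflect no more than the scatter of these arrays, part or all of which may be technical.

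MMPs are zinc proteases that are secreted or held at the cell surface as inactive proenzymes and that, once activated, cut collagens, elastin, proteoglycans and growth factor carriers. ADAMTS proteases are secreted relatives that cut proteoglycans such as aggrecan and versican or process procollagen and microfibril proteins. TIMPs bind the active site of these enzymes and block it. In mammary tumours much of the MMP transcript is known to come from stromal fibroblasts and from macrophages and neutrophils, and many MMP promoters respond to AP-1, a FOS and JUN dimer downstream of receptor kinases such as MET. Because whole spheres were profiled, fewer cells of a type and less RNA per cell cannot be told apart in any result below.

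All values are log2 expression as deposited. A gene is said to have risen, fallen or been called where limma, fitted within the set across all genes, gave a Benjamini-Hochberg adjusted p under 0.05. Replicates of the second set spread more than those of the first: the median residual SD over all genes was 0.236 in the second set against 0.107 in the first. Each array correlated with the others of its group at 0.979 to 0.988 in the second set and at 0.996 to 0.998 in the first. Of the 37 members, 21 had a mean level at or above the median of all genes (6.94) and 16 lay below it.

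Of the measured members, 9 lie side by side on chromosome 9, in the order Mmp13, Mmp12, Mmp1b, Mmp3, Mmp1a, Mmp10, Mmp8, Mmp20 and Mmp7. The promoters of several are printed because this neighbourhood holds Mmp1a and Mmp10, the members with the largest falls under each single compound, and because neighbours in it did not all move together. RefSeq's promoter table (GRCm38.p6, 250 bases before to 50 after each start) held a window for 23 of the 37 members, among them all 9 of this cluster. The AP-1 motif TGACTCA, which reads TGAGTCA when it lies on the other strand, was in 7 of the 9 cluster members. These were Mmp10, Mmp12, Mmp13, Mmp1a, Mmp1b, Mmp3 and Mmp7, and none of the other members with a window held it. Over all promoters 5.2% of windows and 5.95% of genes hold it. The TATA motif TATAAA, also searched on both strands, was in all 9 cluster members and, of the other members, in Adamts1. Over all promoters 13.6% of windows and 15.7% of genes hold it. The TATA match lies after the start in Mmp12 (5 to 10) and across the start, on the other strand, in Mmp8 (-3 to 3). A further window of Mmp12, upstream of the one with these matches, holds neither the AP-1 nor the TATA motif. The TCF motif CTTTGAT, searched on both strands, is bound by the DNA-binding partners of β-catenin. It was in Mmp7 alone among these 23, against 3.73% of all windows and 4.29% of genes. No match overlapped a match of another motif. The 100 bases before the start are given 5′ to 3′ on the strand of the gene, with AP-1 and TATA matches in capitals. Their positions are Mmp1a chr9:7464041-7464140 (plus strand), Mmp1b chr9:7388027-7388126 (minus strand), Mmp10 chr9:7502242-7502341 (plus strand), Mmp3 chr9:7445722-7445821 (plus strand), Mmp13 chr9:7272414-7272513 (plus strand) and Mmp7 chr9:7691990-7692089 (plus strand).
Mmp1a: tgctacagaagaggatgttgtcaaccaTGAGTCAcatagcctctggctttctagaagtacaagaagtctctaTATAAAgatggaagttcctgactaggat
Mmp1b: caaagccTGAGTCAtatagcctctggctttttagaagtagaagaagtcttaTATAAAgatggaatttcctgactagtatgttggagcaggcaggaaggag
Mmp10: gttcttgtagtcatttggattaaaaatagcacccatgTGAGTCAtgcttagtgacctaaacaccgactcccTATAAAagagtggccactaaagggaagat
Mmp3: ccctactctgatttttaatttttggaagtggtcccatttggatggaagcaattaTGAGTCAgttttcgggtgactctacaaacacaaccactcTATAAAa
Mmp13: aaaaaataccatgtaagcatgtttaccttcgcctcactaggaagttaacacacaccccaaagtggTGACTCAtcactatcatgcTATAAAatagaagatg
Mmp7: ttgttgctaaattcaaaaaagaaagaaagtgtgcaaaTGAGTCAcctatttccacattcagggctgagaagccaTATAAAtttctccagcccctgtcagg
The AP-1 match lies from -73 to -67 in Mmp1a, from -93 to -87 in Mmp1b, from -63 to -57 in Mmp10 and in Mmp7, from -46 to -40 in Mmp3 and from -35 to -29 in Mmp13, counted from the start. Carriers of the match included members that fell and Mmp7, which was called in no comparison with DMSO. Mmp8, which held no AP-1 match, fell with PHA and with ICG, as the values below show. Whether the match had a part in these changes was not tested. A match describes the letters of the window and is not a measured binding site.

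PHA spheres held less transcript of the collagenases, of Mmp10 and Mmp12, of the proteoglycan-cleaving Adamts1 and Adamts4 and of Timp3, and more of Timp1. Of the 37 members, 13 fell and 1 rose, where 10.2% of all genes tested were called (3.14% higher and 7.07% lower). The median change over members was -0.18, against 0.02 over all genes. By family, 8 of 18 MMPs and 4 of 15 ADAMTS genes fell and none rose, while of the 4 TIMPs Timp1 rose and Timp3 fell. Arrays of PHA and DMSO did not overlap for 4 members that were higher and 15 that were lower, where 31.6% of all genes did not overlap (15.4% higher and 16.2% lower). With 1 variance pooled over both sets 6 members were called with PHA, where 1.0% of all genes were; Mmp8, Mmp10, Mmp12, Mmp13, Timp3, Mmp2, Adamts6 and Adamts12 were then not called.

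All 4 collagenases, the enzymes that open the triple helix of fibrillar collagen, fell with PHA. Mmp1a, a mouse counterpart of human MMP1, read 4.04, 3.99 and 4.01 in PHA spheres, against 6.78, 7.09 and 6.93 in DMSO spheres. Every treated array lay far below every control array, and the change was -2.92 ± 0.13 (log2, SE, n = 3 each, adjusted p = 8.62e-06), a 7.57-fold fall. Mmp1b, its close copy in the same cluster, read 3.76, 3.87 and 3.61 with PHA, against 4.33, 5.12 and 4.86 with DMSO. The change of Mmp1b was -1.02 ± 0.17 (adjusted p = 0.00491). Probes for one copy may also read the other, which was not tested. Both genes read near the low end of the scale under PHA, and the values used here hold no detection calls, so whether those signals stand above background was not tested.

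Mmp13, the main interstitial collagenase of mice, read 12.21, 12.28 and 12.26 with PHA, against 12.97, 12.93 and 13.00 with DMSO (-0.72 ± 0.07, adjusted p = 0.000331). Mmp8, the collagenase of neutrophil granules, read 12.33, 12.28 and 12.25 with PHA, against 13.13, 13.04 and 12.96 with DMSO (-0.76 ± 0.09, adjusted p = 0.00103). Both falls were smaller than that of Mmp1a and much larger than the spread of the replicates. Mmp12, the macrophage elastase, read 12.32, 12.32 and 12.39 with PHA, against 13.51, 13.29 and 13.28 with DMSO (-1.01 ± 0.09, adjusted p = 0.000159).

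The stromelysins differed among themselves. Mmp10, which cuts proteoglycans and activates other proenzymes, read 9.98, 9.89 and 10.44 in PHA spheres, against 12.05, 11.77 and 11.63 in DMSO spheres. The groups did not overlap, and Mmp10 fell by 3.27-fold (-1.71 ± 0.19, adjusted p = 0.000427). Mmp3, of the same cluster, changed by -0.24 ± 0.07 and did not pass the test (adjusted p = 0.0524). Mmp11, a stromal stromelysin that cleaves few matrix proteins, changed by 0.20 ± 0.09 (adjusted p = 0.18). Among gelatinases, Mmp2 changed by -0.34 ± 0.08 and passed (adjusted p = 0.0271). In a fit of all probe sets neither of the 2 for Mmp2 was called (-0.34 and -0.31). Mmp9 had 10.81, 10.70 and 10.52 with PHA, against 11.02, 11.84 and 12.03 with DMSO. These groups did not overlap, and its change of -0.95 ± 0.37 did not pass (adjusted p = 0.137).

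Mmp19, a broadly expressed secreted MMP, fell by 0.81 ± 0.12 (adjusted p = 0.00253). None of the 5 membrane-bound MMPs was called with PHA, including Mmp14, the surface activator of pro-Mmp2, with a change of 0.02 ± 0.08. Among ADAMTS proteases that cut proteoglycans, 2 of 7 fell. Adamts4, an aggrecanase, read 8.10, 7.96 and 8.12 in PHA spheres, against 9.24, 9.24 and 9.28 in DMSO spheres (-1.19 ± 0.12, adjusted p = 0.000273). Adamts1, which cleaves versican and aggrecan, read 8.59, 8.62 and 8.62 with PHA, against 9.81, 9.46 and 9.52 with DMSO (-0.98 ± 0.11, adjusted p = 0.000426). Both groups of treated arrays were tight and lay below all controls. Of the 8 other ADAMTS genes, Adamts12, which cuts cartilage oligomeric matrix protein, fell by 0.59 ± 0.16 (adjusted p = 0.0408). Adamts6, a microfibril-associated member, fell by 0.55 ± 0.12 (adjusted p = 0.0197). In a fit of all probe sets neither of the 2 for Adamts12 was called (-0.59 and 0.04).

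The inhibitors moved in opposite directions under PHA. Timp1, a secreted inhibitor of most soluble MMPs, read 14.23, 14.18 and 14.18 in PHA spheres, against 13.16, 13.67 and 13.66 in DMSO spheres. It rose by 1.63-fold (0.70 ± 0.13, adjusted p = 0.00882), and the first DMSO array lay below the other two. Timp3, the matrix-bound inhibitor that also blocks ADAM17 and the aggrecanases, read 7.85, 7.74 and 8.08 with PHA, against 8.95, 9.09 and 8.91 with DMSO. Its fall was 2.14-fold (-1.10 ± 0.09, adjusted p = 0.000101), and all 4 of its probe sets were called lower. Timp2, which takes part in pro-Mmp2 activation, changed by -0.09 and Timp4 by 0.10, and neither passed. All 6 probe sets of Timp2 lay lower with PHA, from -0.37 to -0.02. In a fit of all probe sets 1 of them was called.

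**Figure D1:**
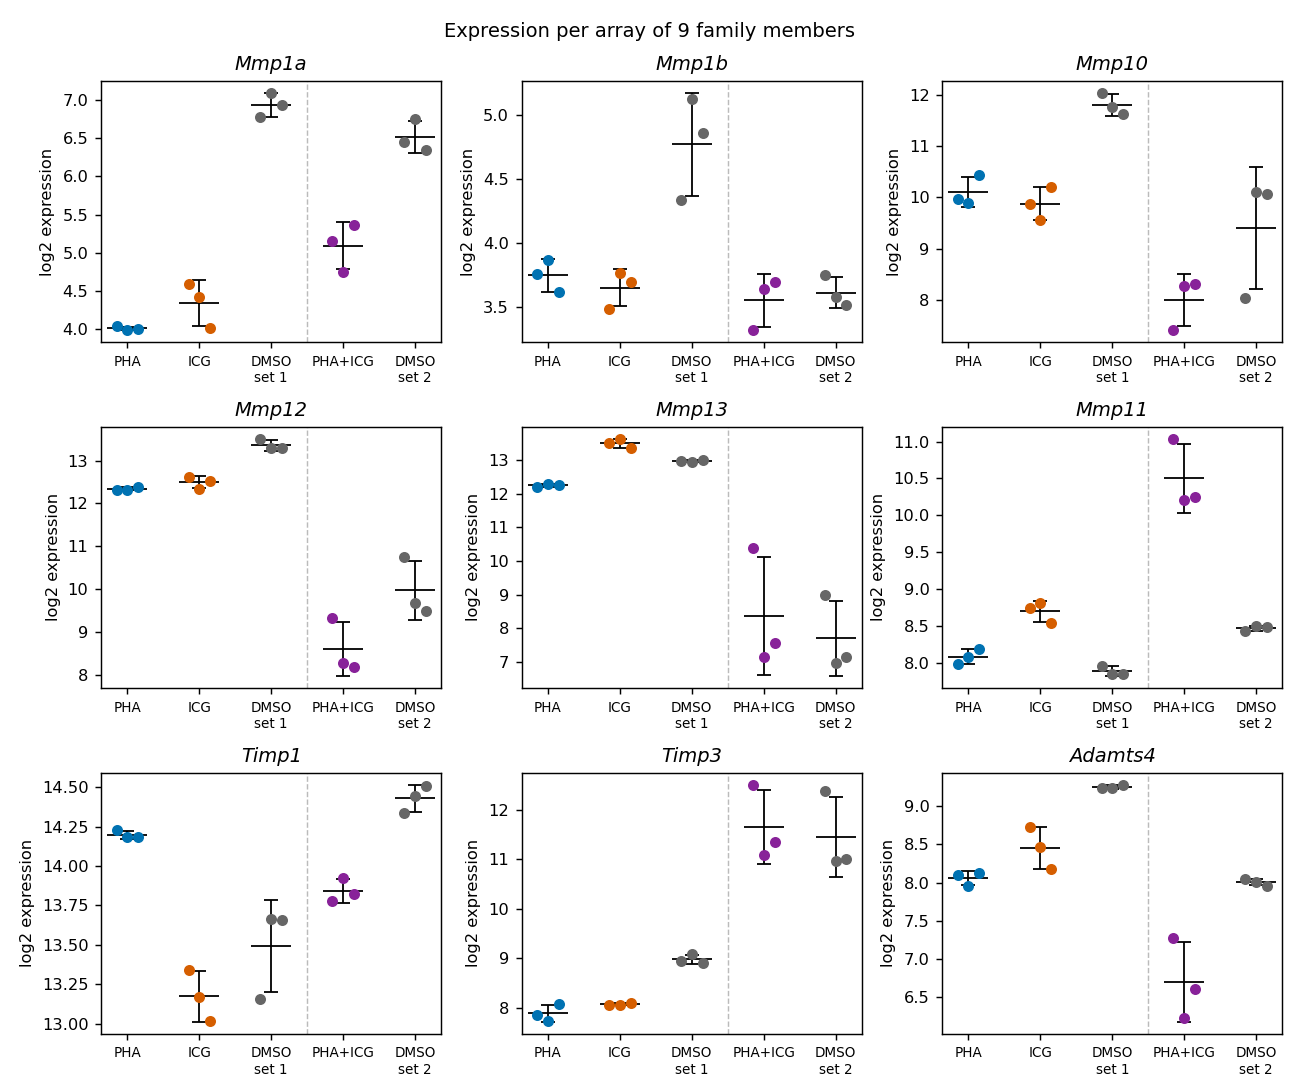
Log2 expression (y axes, each with its own range) of 9 members on every array, with points for arrays, horizontal bars for group means and whiskers for SD (n = 3); the dashed line parts the first set (PHA, ICG and its DMSO) from the second (PHA+ICG and its DMSO). Mmp1a lies near 4 in PHA spheres and near 7 in DMSO spheres of the first set, while Mmp11 is highest with PHA+ICG.

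Most of the members called with ICG were lower too, in a background in which far more genes were called. Of the 37 members, 16 fell and 3 rose, where 26.9% of all genes were called (11.9% higher and 15% lower), and the median change was -0.24 against 0.03 over all genes. Of 18 MMPs 10 fell and 3 rose, of 15 ADAMTS genes 5 fell and none rose, and of 4 TIMPs 1 fell. PHA and ICG were compared with the same 3 DMSO arrays, so their changes are not independent. Groups did not overlap for 4 members higher and 17 lower, where 40.6% of all genes did not overlap (20.2% higher and 20.4% lower). With the pooled variance 8 members were called with ICG, where 6.9% of all genes were; Mmp8, Mmp12, Mmp13, Mmp14, Mmp17, Mmp2, Mmp3, Timp3, Adamts1, Adamts10 and Adamts12 were then not called.

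Mmp1a read 4.60, 4.43 and 4.02 in ICG spheres, against 6.78, 7.09 and 6.93 in DMSO spheres. It was again the member with the largest fall, 6.00-fold (-2.59 ± 0.13, adjusted p = 2.28e-06). Mmp10 read 9.86, 9.57 and 10.21 with ICG, against 12.05, 11.77 and 11.63 with DMSO (-1.93 ± 0.19, adjusted p = 7e-05). Among the other collagenases, Mmp1b fell by 1.12 ± 0.17 (adjusted p = 0.000945) and Mmp8 by 0.49 ± 0.09 (adjusted p = 0.00362). Mmp12 fell by 0.86 ± 0.09 (adjusted p = 0.000104), Mmp19 by 0.63 ± 0.12 and Mmp2 by 0.41 ± 0.08. Mmp3 fell by 0.24 ± 0.07 (adjusted p = 0.0224), and was called in 3 of the 6 fits that left out single arrays, with changes from -0.27 to -0.20.

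The 3 members that rose with ICG were Mmp11, Mmp13 and Mmp17. Mmp11 read 8.74, 8.81 and 8.54 in ICG spheres, against 7.96, 7.85 and 7.85 in DMSO spheres (0.81 ± 0.09, adjusted p = 0.000114). Mmp13 read 13.51, 13.63 and 13.37 with ICG, against 12.97, 12.93 and 13.00 with DMSO (0.54 ± 0.07, adjusted p = 0.000507). For both genes every ICG array lay above every DMSO array. Mmp17, which is anchored to the membrane through a lipid, rose by 0.43 ± 0.13 (adjusted p = 0.0371).

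Membrane-bound MMPs were called with ICG: besides Mmp17, 2 of the 5 fell. Mmp23, a short type II membrane MMP, read 6.34, 5.87 and 6.00 in ICG spheres, against 6.86, 7.27 and 7.30 in DMSO spheres (-1.07 ± 0.14, adjusted p = 0.000436). Mmp14 fell by 0.38 ± 0.08 (adjusted p = 0.00632), and all 3 of its probe sets were called lower. In the ADAMTS genes Adamts4 fell by 0.80 ± 0.12 (adjusted p = 0.00076), Adamts12 by 0.76 ± 0.16 (adjusted p = 0.00545) and Adamts7, another protease of cartilage oligomeric matrix protein, by 0.58 ± 0.09 (adjusted p = 0.00106). Adamts1 fell by 0.38 ± 0.11 and Adamts10, a fibrillin-binding member, by 0.31 ± 0.07. Timp3 read 8.05, 8.06 and 8.10 with ICG, against 8.95, 9.09 and 8.91 with DMSO (-0.91 ± 0.09, adjusted p = 7.55e-05), and all 4 probe sets were called lower. Timp1 read 13.34, 13.17 and 13.01 with ICG, against 13.16, 13.67 and 13.66 with DMSO; the groups overlapped and the change of -0.32 ± 0.13 did not pass (adjusted p = 0.106).

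**Figure D2:**
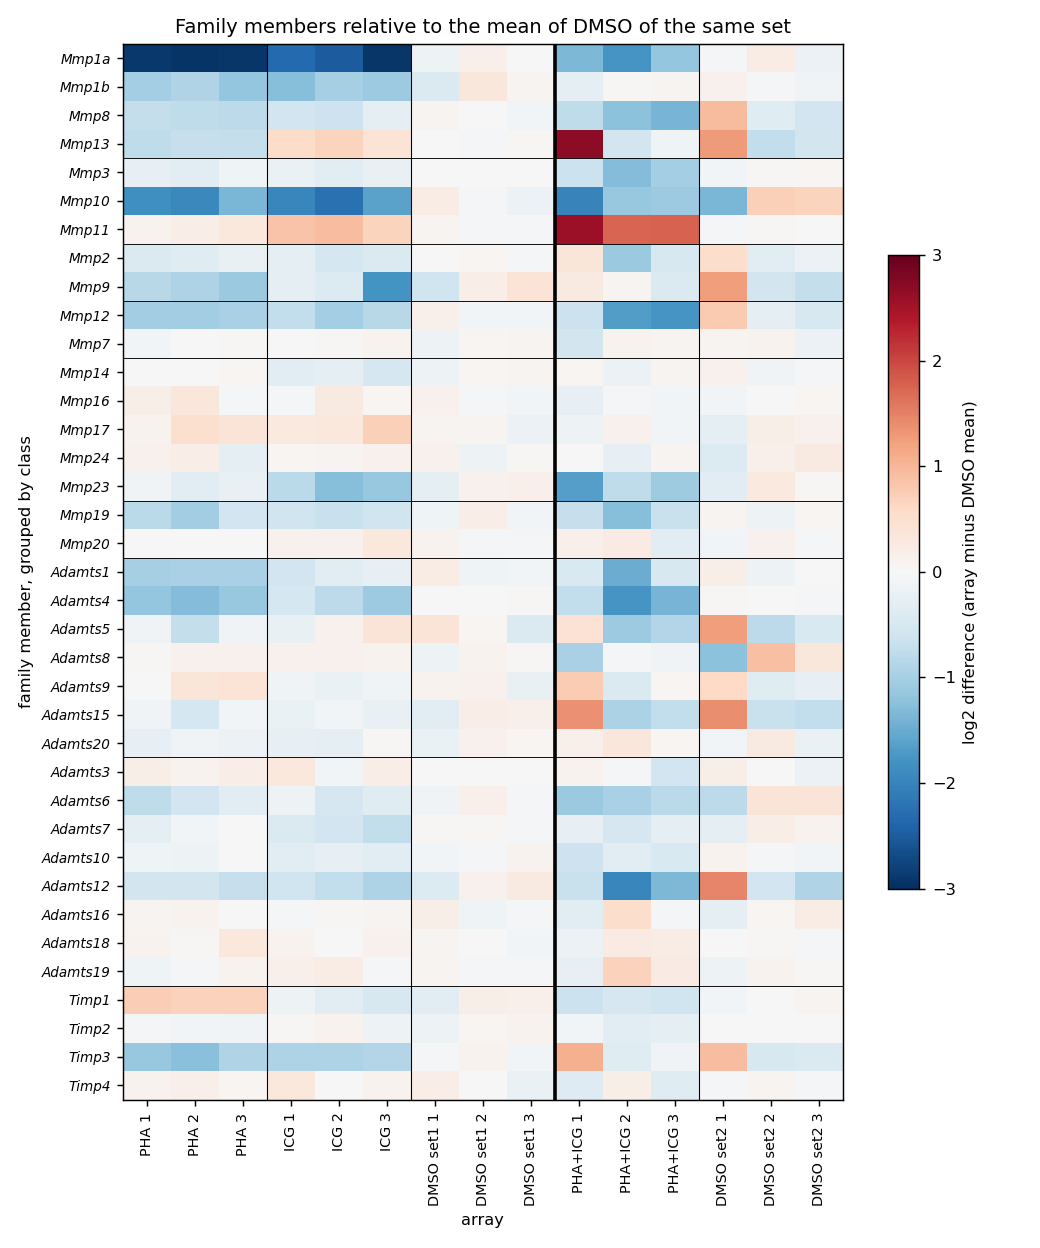
Each row is a member, grouped by class, and each column an array; colour gives the log2 difference from the mean of the DMSO arrays of the same set (blue below, red above), and the thick line parts the sets. Mmp1a and Mmp10 are blue in all PHA and ICG arrays, and Mmp13 is pale red with ICG and pale blue with PHA. The first-numbered arrays of the second set stand apart in several rows.

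PHA was then set against ICG directly, on arrays of the first set. Of the 37 members 5 were higher and 4 lower with PHA, where 27.1% of all genes were called (13.7% higher and 13.4% lower). Mmp13 differed most (PHA minus ICG -1.25 ± 0.07, adjusted p = 4.17e-06), with fallen values under PHA and risen values under ICG. Timp1 was 2.03-fold higher with PHA than with ICG (1.02 ± 0.13, adjusted p = 0.000339). Mmp23 was higher with PHA by 0.85 ± 0.14 (adjusted p = 0.00157), Adamts7 by 0.46 ± 0.09 (adjusted p = 0.00375), Mmp14 by 0.40 ± 0.08 (adjusted p = 0.00445) and Adamts9 by 0.39 ± 0.12 (adjusted p = 0.04). The 3 probe sets of Adamts9 disagreed, from -0.37 to 0.39, and none of them was called in a fit of all probe sets. Mmp11 was lower with PHA by -0.61 ± 0.09 (adjusted p = 0.000509), Adamts1 by -0.60 ± 0.11 (adjusted p = 0.00209) and Adamts4 by -0.39 ± 0.12 (adjusted p = 0.0311). For Mmp1a the difference of -0.33 between the compounds did not pass the test (adjusted p = 0.0967), which does not show that they acted alike on it.

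**Figure D3:**
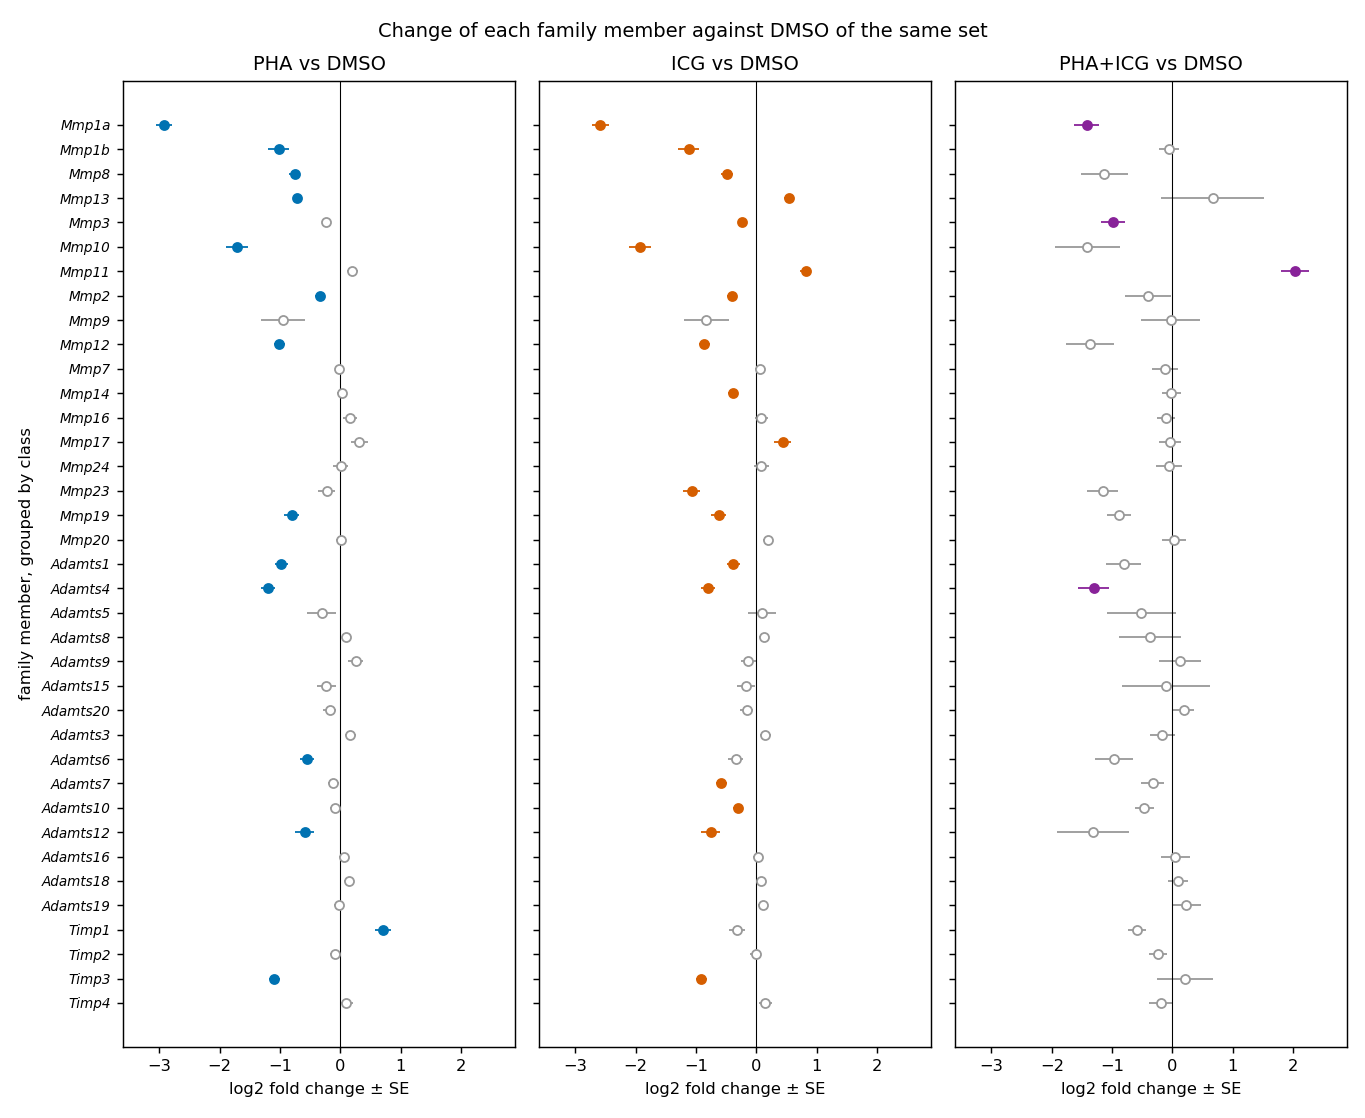
Log2 fold change (x axis) with its SE for each of the 37 members in spheres given PHA, ICG or both against DMSO of the same set; filled points passed an adjusted p of 0.05 and open grey points did not. Most filled points lie left of 0 with PHA and with ICG, and the SEs are wider with PHA+ICG.

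With PHA+ICG 4 of 37 members were called, Mmp11 higher and Mmp1a, Adamts4 and Mmp3 lower, where 2.02% of all genes were called (0.478% higher and 1.54% lower). Mmp11 read 11.04, 10.21 and 10.25 in PHA+ICG spheres, against 8.43, 8.50 and 8.48 in DMSO spheres. The lowest treated array was well above the highest control, and the rise was 4.08-fold (2.03 ± 0.23, adjusted p = 0.00791). Mmp1a read 5.16, 4.76 and 5.37 with PHA+ICG, against 6.45, 6.75 and 6.35 with DMSO (-1.42 ± 0.21, adjusted p = 0.0162). Adamts4 read 7.27, 6.23 and 6.60 with PHA+ICG, against 8.05, 8.01 and 7.96 with DMSO (-1.31 ± 0.25, adjusted p = 0.0454). Mmp3, the broad stromelysin, read 12.37, 11.73 and 12.01 with PHA+ICG, against 12.93, 13.05 and 13.09 with DMSO (-0.99 ± 0.19, adjusted p = 0.0469). None of these groups overlapped; over all members groups did not overlap for 1 higher and 12 lower, where 18.3% of all genes did not (7.33% higher and 11% lower). The median change over members was -0.20, against 0.00 over all genes. In simulated data the PHA+ICG fit recovered 22% of changes of 1 on the log2 scale, so genes not called here are not shown to be unchanged.

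In the second set, arrays with the same number deviated together from their group means, and with the number as a block 13 members were called, where 7.93% of all genes were. A variance pooled over both sets also gave 13, where 13.3% of all genes were called. The block added Mmp12 (-1.37 ± 0.16, adjusted p = 0.000611), Mmp23 (-1.16 ± 0.16, adjusted p = 0.00167), Mmp10 (-1.41 ± 0.23, adjusted p = 0.00443), Mmp8, Mmp19, Adamts12, Adamts6, Adamts1 and Timp1, all lower. Without the block Mmp12 read 9.33, 8.29 and 8.20 with PHA+ICG, against 10.76, 9.68 and 9.49 with DMSO, and the first array of both groups was the highest. Mmp10 ran the other way, with 7.40, 8.27 and 8.31 with PHA+ICG, against 8.04, 10.11 and 10.07 with DMSO. Timp1 read 13.78, 13.92 and 13.82 with PHA+ICG, against 14.34, 14.44 and 14.51 with DMSO; the groups did not overlap, and its change of -0.59 ± 0.15 had an adjusted p of 0.0984 without the block and 0.0455 with it. Without both first-numbered arrays, an alternative chosen after seeing the data, 9 members were called, where 4.87% of all genes were.

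Of the 4 calls without the block, only that of Mmp11 held with each of the 6 arrays left out in turn, with changes between 1.76 and 2.17. Mmp1a was not called without the second or without the third DMSO array, and its change ranged from -1.56 to -1.25. Adamts4 (from -1.59 to -1.07) and Mmp3 (from -1.16 to -0.83) were called in 1 of the 6 such fits, the one without the first PHA+ICG array. Timp3 read 12.51, 11.10 and 11.36 with PHA+ICG, against 12.38, 10.96 and 11.02 with DMSO. Its groups overlapped, and the change of 0.20 ± 0.46 did not pass (adjusted p = 0.946). Mmp13 read 10.38, 7.16 and 7.57 with PHA+ICG, against 8.99, 6.97 and 7.15 with DMSO, so the first arrays stood apart in both groups and the change of 0.67 ± 0.85 did not pass (adjusted p = 0.881).

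Whether the combination differed from each compound was tested as a difference of effects, each against DMSO of its own set, with a variance for each set. Compared with the PHA effect, 3 members were called, where 2.74% of all genes were (1.08% higher and 1.66% lower). The effect on Mmp11 was higher by 1.83 ± 0.25 with PHA+ICG (adjusted p = 0.0014) and that on Mmp1a by 1.50 ± 0.32 (adjusted p = 0.0186), meaning a smaller fall of Mmp1a. The effect on Timp1 was lower by -1.29 ± 0.30 (adjusted p = 0.0282). Leaving out single arrays kept the call of Mmp11 in 12 of 12 fits and those of Mmp1a and Timp1 in 8 of 12 each (both were lost without the third PHA+ICG array or any DMSO array of the second set), with differences from 1.36 to 1.67 for Mmp1a and from -1.38 to -1.13 for Timp1. Compared with the ICG effect, Mmp11 alone was called, by 1.22 ± 0.25 (adjusted p = 0.0491), where 0.385% of all genes were called (0.121% higher and 0.264% lower); it was called in 2 of 12 fits with single arrays left out, between 0.95 and 1.36. Compound and set cannot be told apart in these differences.

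The DMSO spheres of both sets already differed in these families. DMSO arrays of the second set lay above those of the first without overlap for 16 members and below for 11, where 43.9% of all genes did not overlap (23.7% higher and 20.2% lower), and 17 members differed by more than 1 on the log2 scale, as did 8.82% of all genes. Mmp13 averaged 7.70 ± 1.12 in DMSO spheres of the second set and 12.97 ± 0.03 in those of the first (SD, n = 3 each). Mmp8 averaged 9.14 ± 0.83 in the second set and 13.04 ± 0.09 in the first, and Mmp12 averaged 9.98 ± 0.69 in the second and 13.36 ± 0.13 in the first. Timp3 was higher in the second set, at 11.45 ± 0.80 against 8.99 ± 0.09 in the first, as was Adamts15, a versican-cleaving protease, at 8.78 ± 1.22 against 5.16 ± 0.30. Mmp1a stood at 6.52 ± 0.21 in the second set and 6.93 ± 0.16 in the first, and Mmp14 at 12.43 ± 0.13 in the second and 12.38 ± 0.12 in the first. These differences were not tested, since set and culture cannot be told apart and joint normalization of the sets is not stated.

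**Figure D4:**
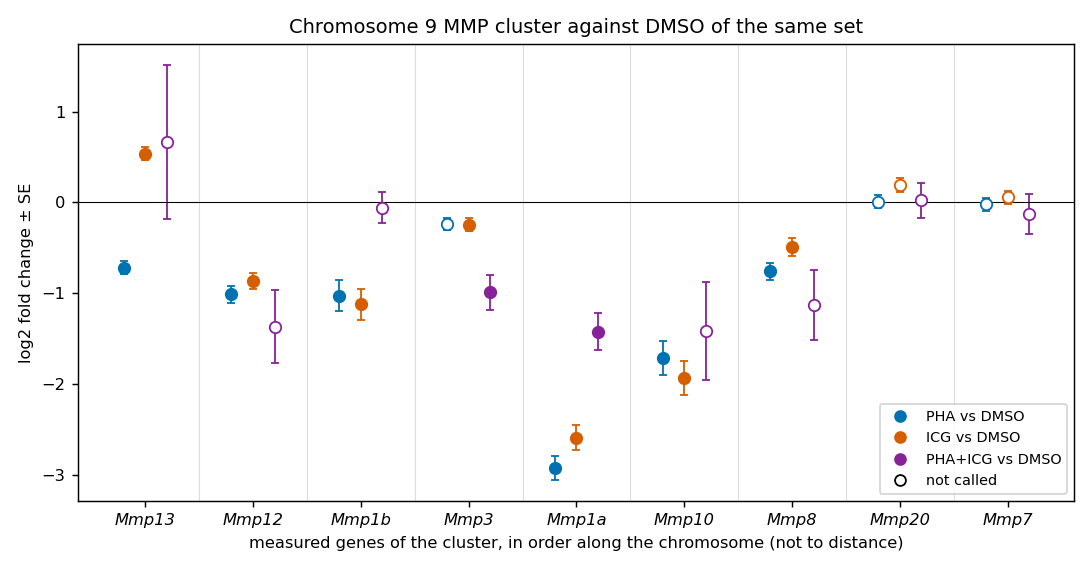
Log2 fold change with its SE (y axis) against DMSO of the same set for the 9 measured MMP genes of chromosome 9, in their order along the chromosome but not to distance; filled points were called and open points were not. Mmp1a and Mmp10 show the largest falls with PHA and with ICG, while Mmp20 and Mmp7, last in the order, lie near 0.

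Within the chromosome 9 cluster the median change of the 9 genes was -0.76 with PHA, -0.49 under ICG and -0.99 under PHA+ICG. With PHA 6 of them fell, with ICG 6 fell and 1 rose, and with PHA+ICG 2 fell, where 10.2%, 26.9% and 2.02% of all genes were called in these comparisons. Mmp20, the enamel protease, and Mmp7, matrilysin, a known β-catenin target in intestinal tumours, were called in none of these comparisons. Mmp20 averaged 3.59 over all arrays, and Mmp1b averaged 3.61 in DMSO spheres of the second set. Both values are near the low end of the scale, so a fall from them might not show. Mmp7 read 5.80, 5.83 and 5.90 in ICG spheres, against 5.64, 5.84 and 5.87 in DMSO spheres, and the groups overlapped. Mmp7 averaged 5.87 over all arrays, below the median of all genes (6.94). Whether its signal stands above background was not tested, so a change of Mmp7 might not show.

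Of the 37 members 16 were called in none of the 3 comparisons with DMSO, and 12 of these had a mean level below the median of all genes. They were Mmp7, Mmp9, Mmp16, Mmp20, Mmp24, Timp2, Timp4, Adamts3, Adamts5, Adamts8, Adamts9, Adamts15, Adamts16, Adamts18, Adamts19 and Adamts20. Their changes ranged from -0.95, that of Mmp9 with PHA, to 0.26. Of the 19 members with several probe sets, none had probe sets called in opposite directions in one comparison. In a fit of all probe sets, 1 of the 6 for Timp2 was called lower with PHA and 2 with ICG.

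Marker genes of cell types that the spheres could hold were counted in the same fits, where 10.2% of all genes were called with PHA, 26.9% with ICG and 2.02% with both compounds. Of 15 measured fibroblast markers 9 fell with PHA, 13 under ICG and 3 under PHA+ICG, and none rose. Their mean level ranged from 9.36 to 9.42 in PHA spheres, from 8.54 to 9.15 in ICG spheres and from 9.82 to 10.44 in DMSO spheres of the first set. In the second set it ranged from 11.09 to 11.44 with PHA+ICG and from 11.86 to 12.13 with DMSO. Of 12 macrophage markers 5 fell with PHA, 9 with ICG and none with PHA+ICG. Their mean level ranged from 10.19 to 10.41 in PHA spheres, from 9.58 to 9.91 in ICG spheres and from 10.58 to 11.09 in DMSO spheres, and in the second set from 7.00 to 8.63 with PHA+ICG and from 7.82 to 9.77 with DMSO, with the first array highest in both groups.

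Of 11 mast cell and basophil markers 9 fell with PHA, 7 under ICG and 2 under PHA+ICG. Their mean level was 6.95 to 7.10 with PHA, 7.56 to 7.77 with ICG and 8.23 to 8.35 with DMSO in the first set. Of 8 neutrophil markers 2 fell with PHA, 1 under ICG and 1 under PHA+ICG. Their mean level in the first set was 7.03 to 7.14 with PHA, 7.13 to 7.24 with ICG and 7.04 to 7.28 with DMSO. S100a8 and S100a9, which neutrophils hold in large amounts, were the markers that fell with PHA (-0.37 ± 0.06, adjusted p = 0.00398, and -0.84 ± 0.08, adjusted p = 0.000307). The other 6 were not called with PHA and changed by between -0.12 (Camp) and 0.19 (Elane). The median change of the neutrophil list with PHA was 0.10. The 6 markers not called had mean levels from 4.33 (Mpo) to 6.76 (Camp), below the median of all genes (6.94). A fall in them might not show. S100a8 averaged 12.75 and S100a9 9.54 over all arrays. Luminal epithelial markers, which check the mammary label, had mean levels of 6.85 to 6.87 with PHA, 6.86 to 6.91 with ICG and 6.87 to 6.99 with DMSO of the first set. In the second set they read 7.74, 6.88 and 6.75 with PHA+ICG, against 7.83, 7.63 and 7.59 with DMSO. Of these 13 markers 3 fell and 1 rose with PHA and with ICG, and none was called with PHA+ICG. Of 13 basal epithelial markers 5 fell with PHA and none rose, 3 fell and 1 rose with ICG, and none was called with PHA+ICG. Their mean level was 6.14 to 6.21 with PHA, 6.29 to 6.39 with ICG and 6.43 to 6.48 with DMSO of the first set, and 5.83 to 6.20 with PHA+ICG and 6.44 to 6.47 with DMSO of the second. The part of these cell types in the protease results was not tested.

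Genes that control or accompany these proteases were counted from lists written with earlier results of these data known, and each count below is to be read against the 10.2% of all genes called with PHA, 26.9% with ICG and 2.02% with both. In the plasminogen system, which activates pro-MMPs, 2 of 12 measured genes fell with PHA and none rose, 3 fell and 2 rose with ICG, and 1 fell with PHA+ICG. Plaur, the urokinase receptor, fell by 0.80 ± 0.08 with PHA (adjusted p = 0.00028) and by 0.87 ± 0.08 with ICG (adjusted p = 5.08e-05). Plat, tissue plasminogen activator, fell by 1.38 ± 0.31 with ICG (adjusted p = 0.00815) and fell by 2.13 ± 0.22 with PHA+ICG (adjusted p = 0.00691), and changed by 0.40 ± 0.31 with PHA.

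Among 16 other MMP regulators 3 rose and 3 fell with PHA, 1 rose and 7 fell with ICG, and 2 fell with PHA+ICG. Reck, a membrane-anchored MMP inhibitor, rose by 0.49 ± 0.10 with PHA (adjusted p = 0.0137) and fell by 0.70 ± 0.10 with ICG (adjusted p = 0.000713). Tfpi2, a secreted serine protease inhibitor that also restrains pro-MMP activation, changed by -0.70 ± 0.15 with PHA (adjusted p = 0.0187), by -1.66 ± 0.15 with ICG (adjusted p = 5.93e-05) and by -1.64 ± 0.24 with PHA+ICG (adjusted p = 0.0169), and was called in each. Thbs1, a matricellular protein that binds MMPs, changed by -0.90 ± 0.14 with PHA, -0.78 ± 0.14 under ICG and -2.23 ± 0.28 under PHA+ICG, all called.

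Of 12 measured AP-1 and ETS factors, which are known to drive MMP promoters, 5 fell with PHA and none rose; with ICG 1 fell and 2 rose, a share of 25% against 26.9% of all genes, and with PHA+ICG none was called. With PHA Ets1 fell by 0.74 ± 0.09 (adjusted p = 0.00116), Fos by 0.55 ± 0.07 (adjusted p = 0.000742), Ets2 by 0.49 ± 0.08 (adjusted p = 0.00552) and Fosl1 by 0.40 ± 0.09 (adjusted p = 0.0199). With ICG Fos fell by 0.25 ± 0.07 (adjusted p = 0.0176), while Junb rose by 0.28 ± 0.08 (adjusted p = 0.0239) and Fosl2 by 0.25 ± 0.08 (adjusted p = 0.0462). Of 23 MMP and ADAMTS substrates 5 fell with PHA, 11 fell and 2 rose with ICG, and 1 fell with PHA+ICG. The gene that fell with PHA+ICG was Col1a1, a chain of type I collagen (-1.95 ± 0.21, adjusted p = 0.00745). Col1a1, and Col3a1, Dcn and Fbln2 of those that fell with PHA, are also among the fibroblast markers counted above.

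Other protease families gave mixed counts. Of 13 ADAM family genes, not all active proteases, 3 fell and 1 rose with PHA and 5 fell and 1 rose with ICG. Adam12, a sheddase of growth factor precursors, fell by 0.84 ± 0.09 with PHA and by 1.05 ± 0.09 with ICG. Of 7 astacins and procollagen processing genes 2 fell with PHA and 3 with ICG, among them Pcolce, the enhancer of procollagen C-proteinase (-1.27 ± 0.13 with ICG, adjusted p = 0.000107). Of 23 genes listed for cathepsins and serine matrix proteases, 4 fell with PHA, 5 fell and 5 rose with ICG and 2 fell with PHA+ICG. This list also holds Cst3 and Cstb, which are cathepsin inhibitors. The 4 with PHA were Cma1, Mcpt4, Tpsb2 and Prss8, and no cathepsin was called with PHA. Cma1, Mcpt4 and Tpsb2 are also among the mast cell and basophil markers counted above. Of 7 ADAMTS-like proteins, which lack the protease domain, 1 rose and 1 fell with PHA and 2 rose with ICG. Adamtsl5 fell by 0.69 ± 0.07 with PHA (adjusted p = 0.000356), and Adamtsl2 rose by 0.37 ± 0.10 with PHA and by 0.48 ± 0.10 with ICG.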

How the data were processed

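Total RNA of mouse mammospheres was measured on 15 arrays in 5 groups of 3, from 250 ng RNA per array. The deposited values are log2 expression of 45101 probe sets; RMA and MAS5 are named, with no version or role, per the submitters' processing notes, and other steps, including whether both sets were normalized together, are not given in the sources used here. Values were taken as deposited by the authors and not normalized further. Precision is limited by there being 3 arrays per group. The 3′ minus 5′ signal of the Gapdh control was 0.44, 0.69 and 0.08 in PHA+ICG arrays 1, 2 and 3. In DMSO arrays of the second set it was 0.13 to 0.27. For the Actb control it was 0.78, 0.51 and 0.49 with PHA+ICG, against 0.50 to 0.71 with DMSO. The part of RNA quality in the results was not tested.

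Probe sets were named through the platform annotation: 34945 had 1 symbol, and 932 with several, 9160 with none and 64 controls were left out. The probe set with the highest mean stood for each of 18193 genes. Models were fitted with limma 3.58.1 in R 4.3.3 across all genes: the first set alone (9 arrays), the second set alone (6 arrays), and all 15 arrays with a weight per set for differences of effects. P-values were adjusted by Benjamini-Hochberg over all genes at 0.05. Changes are treated minus DMSO of the same set, with the SE of the moderated fit. Tables and figures used Python 3.11.15, numpy 2.4.6, pandas 2.3.3 and matplotlib 3.10.9.

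The members and the lists were chosen with earlier results of these data known. The rule for named members took Mmp1a and the TIMPs, up to 10 called members each way per comparison with DMSO, the 5 MMPs and 5 ADAMTS genes with the highest mean level, and the 5 largest called contrasts of the other comparisons; for other lists, up to 4 called genes. Members named outside the rule, as those called in no comparison, were chosen after their values were seen, as were listed genes given with changes that were not called. Same-numbered arrays of the second set correlated in their deviations from the group means at 0.61, 0.36 and 0.28, all above 0.1, and were taken as pairs in an alternative with replicate number as a block; arrays 2 and 3 also correlated across numbers (0.24 and 0.35). In the first set the correlations ranged from -0.26 to 0.12. The fits were tested on simulated data. Alternatives were a pooled variance, quantile normalization, median centring, a level filter, the mean of all probe sets, an intensity trend, all probe sets fitted, the block and single arrays left out.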

Additional observations from a re-analysis of the deposited data

Results flagged for a closer look

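The effect of PHA+ICG against its own DMSO differed by test from the effect of PHA for 3 members. The difference (PHA+ICG effect minus PHA effect) was 1.83 on the log2 scale for Mmp11, 1.50 for Mmp1a and -1.29 for Timp1. Mmp11 also differed from the ICG effect, by 1.22. Each such difference spans both sets, and the set was not separated from the compounds.

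Probe sets that were not used to represent their gene also passed the test in a fit of all probe sets, where the one used did not. For Timp2, one other probe set changed by -0.34 with ICG and by -0.37 with PHA, and another by -0.43 with ICG, while the probe set used changed by -0.01 with ICG and -0.09 with PHA. For Adamts10, the probe set not used was higher with PHA than with ICG by 0.39. For Mmp19, the probe set not used changed by -0.88 with PHA+ICG.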

How the results depend on the processing

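Counts of called members moved most with how the spread was estimated. With 1 variance pooled over all arrays, 6 members were called with PHA, 8 with ICG, 13 with PHA+ICG, 4 between PHA and ICG (8.04% of all genes), 5 in the difference from the PHA effect (4.73%) and 2 in that from the ICG effect (0.879%). With the replicate block the counts were 13 for PHA+ICG, 6 and 2 for the differences from the PHA and ICG effects (5.27% and 1.08% of all genes); in the first set, whose numbers do not pair, they were 12, 17 and 8 for PHA, ICG and PHA against ICG (6.61%, 22.8% and 23.5% of all genes). Without both first-numbered arrays of the second set they were 9 for PHA+ICG, 6 and 2 (4.87%, 3.96% and 1.33% of all genes). Median centring gave 2 for PHA+ICG and 0 for the difference from the ICG effect; the level filter gave 1 and 0 for the differences from the PHA and ICG effects. With single arrays left out the counts ranged from 11 to 14 for PHA, 17 to 21 for ICG, 1 to 4 for PHA+ICG, 7 to 9 for PHA against ICG, 1 to 4 and 0 to 1 for the differences. With PHA, Adamts12 was lost without any 1 PHA array or DMSO array 2 or 3 (-0.61 to -0.45) and Mmp2 without PHA array 1 or 2 or DMSO array 1 or 2 (-0.35 to -0.29). With ICG, Adamts1 was lost without ICG array 1 or DMSO array 1 (-0.29 and -0.28), Mmp17 without ICG array 3 or DMSO array 2 or 3 (0.30 to 0.47) and Mmp3 without ICG array 2 or DMSO array 2 or 3 (-0.25 to -0.20). Such fits also lost Adamts6 with PHA and Adamts4 and Adamts9 between PHA and ICG. Changes of sign were seen only for values that were not called. With the mean of all probe sets Mmp14 changed by -0.045 with PHA, Adamts9 by 0.011 and Timp4 by -0.0086 with ICG. With quantile normalization Timp2 changed by 0.012 with ICG and Mmp14 by 0.063 with PHA+ICG. Without both first arrays Mmp14 changed by 0.017 and Mmp1b by 0.12 with PHA+ICG. With single arrays left out, the range with PHA was -0.052 to 0.057 for Mmp14 and -0.00078 to 0.20 for Timp4; with ICG it was -0.12 to 0.29 for Adamts5 and -0.093 to 0.062 for Timp2. With PHA+ICG it was -0.20 to 0.43 for Adamts9, -0.34 to 1.31 for Mmp13, -0.18 to 0.047 for Mmp17, -0.13 to 0.057 for Mmp1b, -0.23 to 0.67 for Timp3, -0.071 to 0.065 for Mmp14 and -0.99 to 0.10 for Adamts5. The causes were not tested. Signal over background is not known for these values.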
